A study of Mus musculus with 16 samples.

Results

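The response of the DBA/2J mouse heart to coronary ligation was measured in 8 of the 16 libraries of the series. Strain and treatment in the labels chose them, 4 ligated and 4 untreated mice, and all 13504 genes that passed a filter on low counts were compared. All were females of the inbred strain DBA/2J (DBA in the following), 3 months old, with polyA RNA of 1 heart per library. In the ligated group a coronary artery had been tied off for good, which kills the muscle it feeds, and the heart was taken after 2 weeks. The column names call the ligated tissue remote, so it lay away from the infarct. Controls had no operation, so effects of the ligation and of the surgery cannot be told apart. The source tissue is the septum together with a ventricle, which is the right one in the design text and the left one in the labels. The 8 other libraries, from mice of the strain labelled C57Bl6N in the same 2 groups (C57Bl-6NCR in the control titles and C57Bl-6N in the ligated ones), entered the model and set part of its spread.

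When part of the left ventricle dies, the muscle that is left carries more load. Its cells are known to turn up stress genes such as the natriuretic peptides and to lower genes of contraction, calcium cycling and fatty acid use, while fibroblasts lay down collagen between them. Each cardiac myocyte and each capillary also sits on a basement membrane, a thin sheet built from laminins and type IV collagen that integrins bind from the cell side.

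A gene was called when its edgeR quasi-likelihood test, fitted over all 16 libraries, had a Benjamini-Hochberg adjusted p under 0.05 (edgeR adjusted p). The DBA controls were not alike. Controls 3 and 4 (library indices S33 and S34) held 7581515 and 4922411 counts, against 14021582 and 17013017 in controls 1 and 2 and 15067621 to 22010830 in the ligated libraries. Genes rich in G and C were low in controls 3 and 4 and high in controls 1 and 2, relative to the mean of the 4 controls. Rank correlations between a gene's GC content and its deviation from that mean were -0.30 and -0.47 against 0.45 and 0.49. Deviations within a group balance out, so the signs of the 2 pairs of controls depend on each other. For the ligated libraries, relative to the ligated mean, the correlations were -0.08 to 0.07, which does not compare the groups. These correlations run across genes of 1 library. On the first principal component of the 8 libraries, which held 62.3% of the variance, control 4 lay at -75.8, control 3 at -36.5 and controls 1 and 2 at -1.0 and 12.9, with the ligated libraries between 18.9 and 29.1. Counts and the differences of most genes are therefore given with all libraries and without controls 3 and 4. The fit without them leaves 14 libraries in the model, 6 of them DBA, and a called gene that was called in it again, in the same direction, is referred to as retained.

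With all libraries, 3360 genes were called, 24.9% of those tested, with 1501 higher after ligation (11.1%) and 1859 lower (13.8%). Of these, 194 rose and 118 fell by at least 2-fold. Without controls 3 and 4, 505 of 13710 genes were called (3.68%), 250 higher (1.82%) and 255 lower (1.86%). Retained were 451 genes (3.34% of those tested), 234 higher (1.73%) and 217 lower (1.61%), or 15.6% of the higher and 11.7% of the lower calls. In 416 of the 451 the 4 ligated libraries did not overlap the 4 controls, which held for 25.3% of all genes tested. The retained genes include 53 that rose and 19 that fell by at least 2-fold with all libraries, of which 29 and 9 also did so without controls 3 and 4. The number lost depends on which libraries set the spread. When only the 6 remaining DBA libraries were fitted, an alternative added after the data had been seen, 2093 of 13596 genes were called (15.4%). That fit repeated 1573 of the 3360 calls in the same direction (11.6% of genes tested), 782 higher (5.79%) and 791 lower (5.86%).

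**Figure D1:**
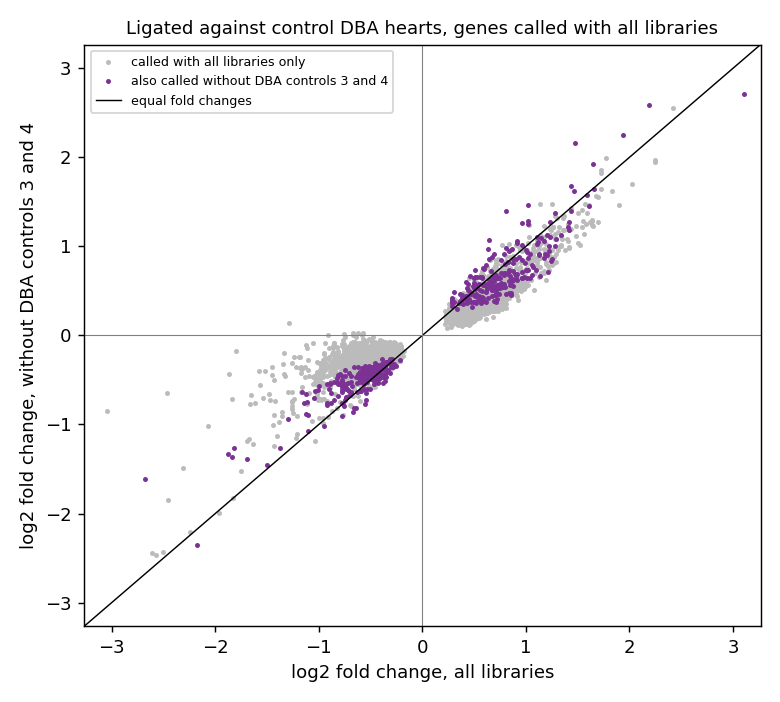
Log2 fold change of ligated against control DBA hearts for the 3360 genes called with all libraries (x axis) and the same genes without DBA controls 3 and 4 (y axis), with the 451 retained genes in purple and the others in grey. Most points lie nearer to zero on the y axis than the line of equal fold changes, with a median ratio of 0.649. The retained genes have a median ratio of 0.876, a closeness to the line that follows from their being chosen by a call in the fit on the y axis.

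Without controls 3 and 4 most differences were smaller. Over the 3360 called genes the log2 fold change without them was 0.649 of its size with all libraries at the median, with an interquartile range of 0.487 to 0.828. It was under 0.5 of that size in 898 genes (26.7%) and had the opposite sign in 7. With controls 3 and 4 as the only DBA controls the median ratio was 1.4. The calls followed GC content. In the 5 equal classes of genes by GC content, the median log2 fold change ran from -0.19 in the class lowest in GC to 0.29 in the highest, and from -0.05 to 0.10 without controls 3 and 4. The lowest class held 87 higher and 713 lower calls and the highest 594 and 95. Among retained genes these counts were 9 and 68, and 72 and 11. Of the 451 retained genes, 396 were also called when each library's GC trend was removed in the fit without controls 3 and 4. Among the retained genes described here the exceptions were Ace, C1qc, Col18a1, Col3a1, Fbln2, Hrc, Itga5, Itgb5, Ltbp3 and Nrp2, with edgeR adjusted p values of 0.05 to 0.0577 in that fit.

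**Figure D2:**
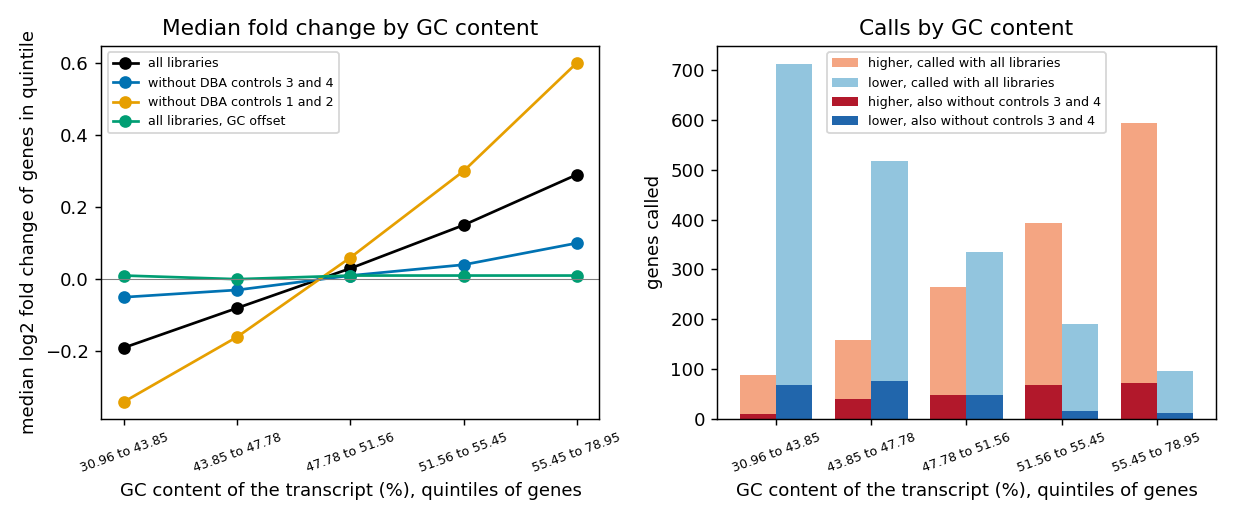
Left, median log2 fold change (ligated against control) of the genes in each of 5 classes of transcript GC content, in 4 fits. Right, the number of genes called higher or lower in each class, with the retained genes as the dark part of each bar. The slope of the black line, from -0.19 to 0.29, is flatter without controls 3 and 4 (blue, -0.05 to 0.10) and steeper without controls 1 and 2 (orange, -0.34 to 0.60), and the bars lean to lower calls on the left and higher calls on the right.

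Markers of cell types were read first, since in bulk tissue fewer cells of a type and less RNA per cell cannot be told apart. All 12 markers of ventricular cardiomyocytes were detected, and their summed level was 87389 to 91396 CPM (counts scaled to a common library size) in ligated hearts against 112520 to 141433 in controls. In controls 1 and 2 that sum was 118079 and 112520 CPM, and in controls 3 and 4 it was 141433 and 137375. The 13 tested fibroblast markers summed to 6459 to 7910 CPM after ligation and 4216 to 5053 in controls, and the 16 macrophage markers to 705.9 to 815.4 against 545.7 to 650.9. The 16 endothelial markers summed to 2647 to 2955 CPM against 2429 to 2543. In each of these 4 cell types the groups did not overlap, nor did they for skeletal muscle markers, a list that holds Acta1 (4761 to 5820 against 2069 to 4329 CPM). The recruited monocyte and lipid-laden macrophage list summed to 5074 to 5512 CPM after ligation against 7296 to 9875. Most of that sum was Lpl, at 4796 to 5275 CPM against 7113 to 9721. Of its 9 tested members 1 was called lower, Lpl, and 1 higher, Fabp5. The median log2 fold change over the 9 was 0.50, and 0.59 without controls 3 and 4, so the lower sum does not describe the list. Sums of smooth muscle and pericyte, lymphatic, Schwann cell, adipocyte and epicardial markers did overlap. Neutrophil markers (2.921 to 5.512 CPM over the 8 libraries, 3 of 8 markers tested), B cell markers (1.45 to 4.059 CPM, 3 of 8) and T and NK cell markers (0.8415 to 4.987 CPM, 2 of 11) were near the limit of detection. No tested marker was at 0 in all 8 libraries. The part of these shifts in the changes of single genes was not tested.

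The largest retained rises, among genes at 2 CPM or more whose groups did not overlap, included a stress peptide, a kinase of NAD supply, a chemokine and a basement membrane collagen. CPM values are given in the order of controls 1 to 4, then ligated libraries 1, S40, S41 and S42. Nppa, the gene of atrial natriuretic peptide, was at 244, 365, 247 and 581 CPM in controls and at 785, 986, 1096 and 1028 after ligation. Control 4 was the highest control and still lay under every ligated heart. The log2 fold change was 1.44 ± 0.25 (SE; edgeR adjusted p = 0.00282), and 1.68 ± 0.27 without controls 3 and 4 (edgeR adjusted p = 0.0136), where it was no smaller. Nmrk2, a muscle kinase that makes NAD precursor from nicotinamide riboside, stood at 13.4, 21.4, 18.1 and 16.3 CPM in controls and 47.8, 56.4, 59.2 and 46.1 in ligated hearts. All 4 ligated hearts were more than 2-fold above the highest control. Its log2 fold change was 1.59 ± 0.23 (edgeR adjusted p = 0.00226) and 1.58 ± 0.32 without controls 3 and 4 (edgeR adjusted p = 0.026).

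Camk1g, a calcium and calmodulin-dependent protein kinase, had the largest fold change of the retained rises named by the rule, at a low level. It was at 0.431, 0.522, 1.12 and 0.434 CPM in controls and 2.61, 1.65, 3.14 and 1.78 after ligation. Control 3 stood above the other controls, and every ligated heart lay above it, at a log2 fold change of 1.94 ± 0.41 (edgeR adjusted p = 0.00605). Ccl8, a chemokine that draws monocytes and other leukocytes, was at 1.8, 1.68, 1.4 and 3.47 CPM in controls and 7.25, 4.09, 4.54 and 5.35 in ligated hearts. The gap between control 4 and the lowest ligated heart was narrow, and the log2 fold change was 1.46 ± 0.34 (edgeR adjusted p = 0.00927). Nlrc3, a cytoplasmic receptor known to restrain innate immune signalling, was at 0.982 to 1.91 CPM in controls and 4.11 to 4.95 in ligated hearts, a rise of 1.61 ± 0.29 on the log2 scale (edgeR adjusted p = 0.00322), or 1.45 without controls 3 and 4. Mest, an imprinted gene read from the paternal copy, rose from 12.3 to 19.8 CPM in controls to 31.1 to 53.6, by 1.44 ± 0.22 (edgeR adjusted p = 0.00257). The other rises named by the same rule were the membrane protease gene St14, the transposase-derived Pgbd5, Tmem119, the arylsulfatase gene Arsi and the secreted protease gene Adamts17. Their log2 fold changes lay between 1.28 and 1.42 with all libraries and between 1.08 and 1.37 without controls 3 and 4.

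The retained falls with the largest fold changes, under the same conditions on level and overlap, held a kinase gene, a hepcidin gene and subunits or partners of the myocyte's ion handling. Sbk3, a gene of the SH3-binding kinase family, was at 11.6, 7.13, 22.4 and 43.6 CPM in controls and 3.52, 4.46, 2.42 and 1.89 after ligation. Controls 3 and 4 were the 2 highest values, and controls 1 and 2 alone still lay above every ligated heart. The log2 fold change was -2.68 ± 0.46 (edgeR adjusted p = 0.00278) and shrank to -1.61 ± 0.37 without controls 3 and 4 (edgeR adjusted p = 0.0372). Lrrc10b, named for its leucine-rich repeats, went the other way with the libraries, from -2.18 ± 0.35 (edgeR adjusted p = 0.00257) to -2.35 ± 0.39 (edgeR adjusted p = 0.0115). It stood at 2.37, 4.35, 2.38 and 2.6 CPM in controls and 0.662, 1.16, 0.435 and 0.433 in ligated hearts.

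Hamp2, a close copy of the hepcidin gene Hamp with which it may share reads, was at 47.6, 32.5, 65.5 and 95.4 CPM in controls and 21.4, 16.2, 13.5 and 15.6 after ligation. The groups did not overlap, as the rule required, and the fall of 1.82 ± 0.25 on the log2 scale (edgeR adjusted p = 0.00188) was -1.26 ± 0.18 without controls 3 and 4 (edgeR adjusted p = 0.00404). Hepcidin is the hormone that closes the cellular iron exporter. Hamp itself was at 3.77 to 23.6 CPM in controls and 1.84 to 3.35 after ligation and was called with all libraries (-2.07 ± 0.49, edgeR adjusted p = 0.00954) but not without controls 3 and 4 (-1.02, edgeR adjusted p = 0.171). Kcnj3, a subunit of the potassium channel opened by acetylcholine, was at 136, 96.1, 175 and 194 CPM in controls and 62.5, 63.2, 59.8 and 56.4 after ligation. The ligated hearts lay within a few CPM of each other and all below control 2, the lowest control. Its log2 fold change was -1.30 ± 0.17 (edgeR adjusted p = 0.00183), and -0.94 ± 0.14 without controls 3 and 4 (edgeR adjusted p = 0.00792). The remaining falls of the rule were Tchhl1, Amy1 (one of several near-identical amylase genes, so uncertain), the junction gene Tmem47, the orphan receptor Gpr22, the coactivator Eya1, the zinc finger gene Zc3h6, Hrc and Lgi1, with log2 fold changes of -1.69 to -1.10 with all libraries and -1.39 to -0.63 without controls 3 and 4. Each of the 12 rises and 12 falls kept its call when any single DBA library was left out.

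**Figure D3:**
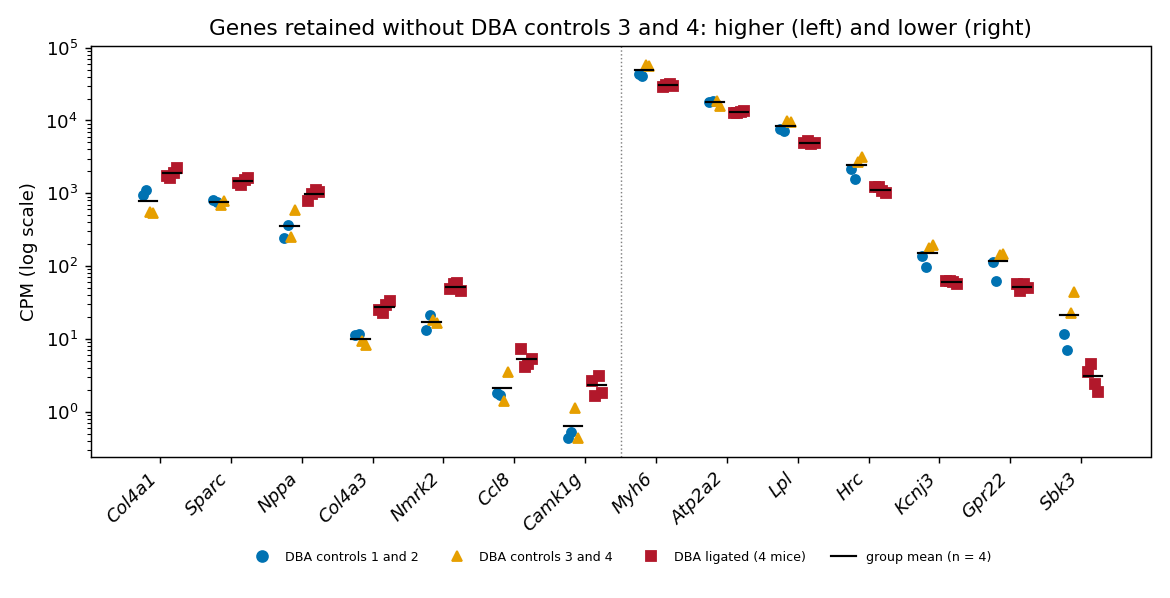
CPM on a log axis in each DBA library for 7 retained rises (left of the dotted line) and 7 retained falls (right), with the group means over 4 libraries as bars. Controls 3 and 4 (triangles) differ from controls 1 and 2 (circles) in opposite ways in different genes, low for Col4a1 (561 and 532 against 961 and 1110 CPM) and high for Sbk3 (22.4 and 43.6 against 11.6 and 7.13). In every gene shown the ligated libraries (squares) do not overlap the 4 controls, which was a condition for choosing the genes.

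Contractile and calcium-cycling genes held the largest falls in absolute level. Myh6 encodes the fast myosin heavy chain that drives contraction in mice, and was at 43534, 40812, 58518 and 55312 CPM in controls and 29287, 31096, 31841 and 30203 after ligation. Controls 1 and 2 lay between controls 3 and 4 and the ligated hearts. The log2 fold change was -0.69 ± 0.12 with all libraries (edgeR adjusted p = 0.00277) and -0.46 ± 0.11 without controls 3 and 4 (edgeR adjusted p = 0.03). Atp2a2, the calcium pump of the sarcoplasmic reticulum, was at 18167, 18649, 18487 and 15729 CPM against 12664, 12831, 13173 and 13531. Here control 4 was the lowest control, and the fall was slightly larger without controls 3 and 4, at -0.50 ± 0.12 (edgeR adjusted p = 0.0343) against -0.44 ± 0.11 (edgeR adjusted p = 0.0101). Hrc, the histidine-rich calcium-binding protein of the same store, was at 2187, 1580, 2717 and 3180 CPM and at 1215, 1207, 1058 and 1008 after ligation. It was less than 0.5 of its control level, with a log2 fold change of -1.11 ± 0.19 (edgeR adjusted p = 0.00309), or -0.75 ± 0.19 without controls 3 and 4 (edgeR adjusted p = 0.0475). Myl2, the ventricular regulatory light chain, and Cmya5, which encodes a large protein of the Z-disc region, were also retained, at -0.63 ± 0.12 and -0.85 ± 0.14 (edgeR adjusted p = 0.00406 and 0.00257), or -0.53 and -0.72 without controls 3 and 4.

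Of the 12 ventricular cardiomyocyte markers, 8 were called lower, beside 13.8% of all genes. Their median log2 fold change was -0.56 against 0.03 over all genes, and 2 of them, Myh6 and Myl2, were retained. The median without controls 3 and 4 was -0.35. Tnnt2, cardiac troponin T, lost its call without control 3 or control 4 and without ligated heart S41 or S42. It was at 10856, 7825, 14038 and 18287 CPM in controls and 7765, 8936, 7126 and 6709 after ligation, so control 2 lay within the ligated range. Its log2 fold change of -0.74 ± 0.21 (edgeR adjusted p = 0.0207) became -0.29 ± 0.20 without controls 3 and 4 (edgeR adjusted p = 0.381). Myh7, the slower heavy chain that many stressed mouse hearts raise, was at 2217, 1853, 3019 and 3347 CPM in controls and 1968, 2118, 1859 and 2060 in ligated hearts, which made no call (-0.38 ± 0.29, edgeR adjusted p = 0.331). Without controls 3 and 4 its difference was -0.02 ± 0.40. Acta1, the skeletal actin gene, was 2.26-fold higher on the mean, from 2239, 1972, 958 and 986 CPM to 3467, 3176, 3215 and 4048, but lost its call without control 3 (with all libraries 1.17 ± 0.30, edgeR adjusted p = 0.012; without controls 3 and 4, 0.72 ± 0.34, edgeR adjusted p = 0.225).

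Genes of the junctions, the Z-disc and the cell's outer anchor were called in both directions, in a balance that depended on the scaling. With library totals, higher and lower calls were 5 and 6 for the intercalated disc, 7 and 4 for the Z-disc and 5 and 3 for the costamere. Of 23 intercalated disc genes, which join myocytes end to end, 12 were called lower and 2 higher. Ctnna3, the alpha-T catenin of that disc, was the retained one, at 74.9, 72, 102 and 105 CPM in controls and 44.8, 49.7, 53.2 and 53.3 after ligation. The groups did not overlap and the log2 fold change was -0.81 ± 0.13 (edgeR adjusted p = 0.0027), or -0.55 without controls 3 and 4 (edgeR adjusted p = 0.0232). Ctnnb1, beta-catenin, and Jup, plakoglobin, were the 2 called higher, at 0.36 ± 0.08 and 0.39 ± 0.12, and neither was retained (0.25 and 0.15 without controls 3 and 4). Gja1, the main ventricular gap junction gene, lay at the threshold with all libraries (-0.40 ± 0.15, edgeR adjusted p = 0.05 after rounding, called), its groups overlapped, and the call was lost in 7 of the 8 fits that left out 1 DBA library. Without controls 3 and 4 the difference was -0.22 ± 0.16. Of 25 Z-disc and stretch genes, 9 were called lower and 5 higher. Ankrd1, which rises with stretch of titin, was at 1642, 1960, 2438 and 3711 CPM in controls and 3407, 3957, 3791 and 4021 after ligation. Control 4 overlapped the ligated range, so the difference was larger without the shallow controls, at 1.07 (edgeR adjusted p = 0.0147) against 0.64 ± 0.21 (edgeR adjusted p = 0.0356), a call that was lost in 6 of the 8 fits that left out 1 DBA library. Among 24 genes of the costamere and dystrophin complex, 5 were called lower and 3 higher, beside shares of 13.8% and 11.1% over all genes. Sspn, which encodes sarcospan of that complex, was retained at -0.32 ± 0.07 (edgeR adjusted p = 0.00532).

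Potassium channels held 5 retained calls, the most of the 5 myocyte lists of junctions, anchors, Z-disc, channels and transcription factors. Of 25 tested, 9 were called lower and 1 higher, beside 13.8% and 11.1% of all genes tested. Retained were 4 and 1 of them, beside 1.61% and 1.73% of all genes. In the fit of the 6 DBA libraries 8 and 1 calls were repeated. The list's median was -0.05, and -0.17 without controls 3 and 4, but 0.12 when library totals replaced TMM scaling, which moved the median of all genes from 0.03 to 0.19. Kcnj2, the inward rectifier that sets the resting potential of ventricular myocytes, was at 114, 87.7, 153 and 182 CPM in controls and 59.4, 73.4, 62.9 and 68.8 after ligation. Its mean was 0.496 of the control level, a log2 fold change of -1.01 ± 0.17 (edgeR adjusted p = 0.00277), and -0.61 ± 0.13 without controls 3 and 4 (edgeR adjusted p = 0.0217). Kcnj5, which pairs with Kcnj3 in the acetylcholine-gated channel, was tighter among controls, at 149, 133, 159 and 160 CPM, and at 105, 104, 109 and 96.3 after ligation. Its fall was 0.54 ± 0.09 on the log2 scale (edgeR adjusted p = 0.00257), so both subunits of that channel were retained. Kcnj3 also stands in the list of atrial muscle markers, whose median log2 fold change was -1.30, and the part of that shift in its fall was not tested. Abcc9, the sulfonylurea receptor of ATP-sensitive channels in heart and vessel muscle, had a log2 fold change of -0.78 ± 0.14 (edgeR adjusted p = 0.00309), or -0.51 without controls 3 and 4. Kcne4, an accessory subunit that damps other channels, was the 1 that rose, from 2.73, 4, 2.95 and 4.55 CPM to 6.91, 7.69, 10.4 and 7.79 (1.23 ± 0.26, edgeR adjusted p = 0.00628).

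Among hormone and receptor genes of cardiac load, 6 of 37 were called higher and 7 lower, beside 11.1% and 13.8% of all genes tested. The 4 retained were Nppa, Ace, Agtr1a and Pde3a, beside 3.34% of all genes. Ace, the enzyme that makes angiotensin II, was at 97.6, 83.7, 77.4 and 78.1 CPM in controls and 163, 151, 146 and 143 after ligation. All ligated hearts lay well above the highest control, and the log2 fold change was 0.84 ± 0.14 (edgeR adjusted p = 0.00282) and 0.73 without controls 3 and 4 (edgeR adjusted p = 0.0384). Agtr1a, which encodes its main receptor, fell from 44.7, 36, 48 and 39.5 CPM to 32.1, 29.2, 27 and 28.2, by 0.53 ± 0.10 (edgeR adjusted p = 0.00448). Pde3a, a phosphodiesterase that breaks down cyclic AMP in myocytes, was at 146, 137, 190 and 150 CPM and 74.4, 87.2, 82.7 and 84.8 after ligation. The log2 fold change of -0.92 ± 0.14 (edgeR adjusted p = 0.00226) was -0.78 without controls 3 and 4 (edgeR adjusted p = 0.0147). Nppb, the brain natriuretic peptide gene, varied among controls, at 31.1, 110, 46.7 and 84.6 CPM, and was at 185, 192, 111 and 156 after ligation. It was called with all libraries (1.24 ± 0.30, edgeR adjusted p = 0.0105) and not without controls 3 and 4, where the difference was of like size but less certain (1.18 ± 0.45, edgeR adjusted p = 0.145).

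Many energy genes were called lower and few of those calls were retained, but not every energy list leaned that way. Of 25 genes of glucose uptake and glycolysis 5 were called higher and 2 lower, and Pfkp was retained as higher. Creatine and adenylate energy transfer had 2 of 12 called higher and none lower. Mitochondrial solute carriers and channels had 5 of 38 called lower and 2 higher. Over all genes tested 13.8% were called lower and 11.1% higher, and 3.34% were retained. Lpl, the lipase that frees fatty acids from lipoproteins at the capillary wall, was at 7674, 7113, 9721 and 9536 CPM in controls and 4854, 5275, 4796 and 4908 after ligation. The log2 fold change was -0.78 ± 0.13 (edgeR adjusted p = 0.0027) and -0.58 without controls 3 and 4 (edgeR adjusted p = 0.0251). Acsl1, which activates long-chain fatty acids, was retained as well, at 1612, 1528, 1698 and 1541 CPM and 1182, 1291, 1035 and 1121 (-0.46 ± 0.10, edgeR adjusted p = 0.00542). Together with these, 10 of 30 lipid storage and fasting-responsive genes were called lower and none higher, with a median of -0.40, and -0.44 without controls 3 and 4. The mitochondrial carnitine carrier Slc25a20 (-0.41 ± 0.09, edgeR adjusted p = 0.00597) and the succinate-CoA ligase subunit Suclg2 (-0.44 ± 0.10, edgeR adjusted p = 0.00693) were retained. Of 24 genes of branched-chain amino acid breakdown 10 were called lower and none higher. Auh and Hsd17b10, an enoyl-CoA hydratase and a dehydrogenase of that pathway, were retained at -0.43 ± 0.10 and -0.42 ± 0.10 (edgeR adjusted p = 0.00884 and 0.00841). In the fit of the 6 DBA libraries 9 of these 10 calls were repeated.

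No call among respiratory chain genes was retained, against 11.7% of all lower calls. Of 35 complex I subunits 14 were called lower and none higher, and of 47 subunits of complexes II to V also 14 and none. Their medians were -0.22 and -0.08 with all libraries and -0.18 and -0.16 without controls 3 and 4, but -0.05 and 0.08 with library totals, against 0.19 over all genes. Uqcrb, a subunit of complex III, was at 811, 493, 1318 and 1993 CPM in controls and 482, 453, 353 and 363 after ligation. Controls 3 and 4 were far above controls 1 and 2, and the log2 fold change went from -1.48 ± 0.32 (edgeR adjusted p = 0.00666) to -0.66 (edgeR adjusted p = 0.206). The fit of the 6 DBA libraries repeated 7 of the 14 complex I calls and 10 of the 14 calls in complexes II to V. Over all genes, 46.8% of the calls were repeated in that fit. Of 79 cytosolic ribosomal proteins 9 were called lower and 4 higher, where the shares over all genes were 13.8% and 11.1%. Of these 13 calls 3 were repeated in the 6 DBA libraries. With library totals 30 were called higher and 7 lower. The proteasome had 11 lower calls and 1 higher, 4 of them repeated, but 3 lower and 8 higher with library totals. Of 77 mitochondrial ribosomal proteins 15 were called lower and none higher, and 10 of these calls were repeated, while library totals gave 6 lower and 12 higher. None of 3 calls in ketone body use was repeated. Rpl14 was at 252, 176, 369 and 621 CPM in controls and 167 to 179 after ligation, which is the level of control 2.

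Of 34 cardiac transcription factors and coactivators 15 were called lower and none higher, beside 13.8% and 11.1% of all genes tested. The median was -0.24, and -0.22 without controls 3 and 4. With library totals 8 were called lower and 4 higher. Tbx5, a T-box factor of heart development and atrial rhythm, was at 54.1, 43.8, 77.4 and 75.5 CPM in controls and 31.2, 37.1, 36.2 and 36.1 after ligation. The log2 fold change was -0.82 ± 0.15 (edgeR adjusted p = 0.00406), and -0.48 without controls 3 and 4 (edgeR adjusted p = 0.041). Esrrg, a nuclear receptor of mitochondrial genes, was retained too, from 122, 112, 154 and 189 CPM to 88.7, 84.9, 87.1 and 89.8 (-0.71 ± 0.13, edgeR adjusted p = 0.00406), and by less without controls 3 and 4, at -0.42. Ppargc1a, the coactivator of mitochondrial biogenesis, showed a difference that shrank without the shallow controls, at 176, 155, 302 and 360 CPM and 108 to 137 after ligation. It was called with all libraries (-1.03 ± 0.21, edgeR adjusted p = 0.00526) and not without controls 3 and 4 (-0.45, edgeR adjusted p = 0.0738).

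Members of each extracellular matrix list rose, except among the small leucine-rich proteoglycans. Over all genes tested 11.1% were called higher and 13.8% lower, and 3.34% were retained. Of 23 basement membrane genes 15 were called higher and none lower, with a median log2 fold change of 0.53, and 0.42 without controls 3 and 4. Retained were 7 of them, 4 chains of type IV collagen, the laminin chain Lama4, the linker nidogen-2 (Nid2) and Col18a1, and 13 of the 15 calls were repeated in the 6 DBA libraries. Type IV collagen genes lie in head-to-head pairs on mm10, so that the starts of both genes share 1 stretch of DNA. Col4a1 (chr8:11198423-11312826, minus strand) and Col4a2 (chr8:11312829-11449287, plus strand) are 2 bases apart in the deposited gene coordinates, and Col4a4 (chr1:82450723-82586849, minus strand) and Col4a3 (chr1:82586921-82722059, plus strand) 71 bases apart. All 4 genes were retained and rose, so 1 window per pair that holds the starts of both genes is shown. The windows run from 250 bases before to 50 after the RefSeq start of Col4a2 (chr8:11312555-11312854, plus strand) and of Col4a4 (chr1:82586800-82587099, minus strand) on GRCm38.p6. Most of each window lies inside the partner gene, Col4a1 or Col4a3. Capitals mark the GC box GGGCGG and the CCAAT box CCAAT, each searched on both strands.
Col4a2: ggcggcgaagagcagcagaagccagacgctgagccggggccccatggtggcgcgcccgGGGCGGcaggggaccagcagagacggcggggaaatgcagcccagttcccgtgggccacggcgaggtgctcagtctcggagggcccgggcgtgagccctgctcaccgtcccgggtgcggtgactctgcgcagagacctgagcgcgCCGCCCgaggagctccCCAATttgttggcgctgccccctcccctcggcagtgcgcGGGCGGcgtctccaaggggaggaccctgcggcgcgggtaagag
Col4a4: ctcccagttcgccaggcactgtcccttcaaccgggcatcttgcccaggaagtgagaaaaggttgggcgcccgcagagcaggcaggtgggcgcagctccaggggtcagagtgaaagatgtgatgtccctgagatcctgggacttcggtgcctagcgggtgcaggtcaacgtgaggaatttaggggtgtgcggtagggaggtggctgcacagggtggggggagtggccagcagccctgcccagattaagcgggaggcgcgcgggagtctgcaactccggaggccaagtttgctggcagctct
The Col4a2 window held 3 GC boxes and 1 CCAAT box, which do not overlap, and the Col4a4 window held neither. The window of Col4a1 (chr8:11312777-11313076, minus strand, not shown) overlaps that of Col4a2 only in part and held 1 GC box and 1 CCAAT box. A GC box was found in 35.7% and a CCAAT box in 37.4% of the 32851 promoter windows of 300 bases in the same table, so these matches are common and describe the sequence only.

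All 4 genes of these pairs were higher in every ligated heart than in any control. Col4a1 was at 961, 1110, 561 and 532 CPM in controls and 1748, 1625, 1902 and 2236 after ligation, and Col4a2 at 747, 822, 468 and 412 and at 1125, 1110, 1288 and 1406. In both, controls 3 and 4 were far below controls 1 and 2, and each of the ligated hearts exceeded all of them. On the log2 scale they rose by 1.25 ± 0.21 and 1.01 ± 0.18 (edgeR adjusted p = 0.0027 and 0.00367), and without controls 3 and 4 by 0.86 ± 0.17 and 0.65 ± 0.14 (edgeR adjusted p = 0.0182 and 0.0216). Col4a3, whose chain is best known from kidney and lung basement membranes, was at 11.2, 11.5, 9.26 and 8.24 CPM and 24.8, 22.8, 29 and 33.6 after ligation. Its partner Col4a4 was at 18.2, 14.4, 12.9 and 14.1 CPM and 28.1, 30, 36.4 and 41.2. These controls were more even, and the log2 fold changes of 1.42 ± 0.23 and 1.17 ± 0.19 (edgeR adjusted p = 0.0027 and 0.00257) were 1.27 ± 0.30 and 1.06 without controls 3 and 4 (edgeR adjusted p = 0.0408 and 0.0331). The third pair, Col4a5 and Col4a6 on the X chromosome, was not retained. Col4a5 was called with all libraries (0.74 ± 0.16, edgeR adjusted p = 0.00636) and Col4a6 was not (0.43 ± 0.26, edgeR adjusted p = 0.218), with differences of 0.47 and 0.37 without controls 3 and 4.

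Fibrillar collagen and the enzymes that finish it rose together. Col3a1, the type III collagen of connective tissue, was at 950, 1133, 925 and 1350 CPM in controls and 1873, 1887, 2421 and 2288 after ligation, with a log2 fold change of 0.96 ± 0.20 (edgeR adjusted p = 0.00532) and 1.02 ± 0.26 without controls 3 and 4 (edgeR adjusted p = 0.0479). Col1a1 and Col1a2, the chains of type I collagen, differed by as much, 0.90 ± 0.21 and 1.11 ± 0.20 (edgeR adjusted p = 0.00849 and 0.00378), and by 1.01 and 1.04 without controls 3 and 4 (edgeR adjusted p = 0.0753 and 0.0648). Their differences were of like size in both fits, but they were no longer called. Of 25 collagen maturation enzymes 16 were called higher and none lower, beside 11.1% and 13.8% of all genes. Their median was 0.57, and 0.32 without controls 3 and 4. With each library's GC trend removed as well it was 0.29, and 3 were called higher. Retained were the cross-linking Loxl1 (1.07 ± 0.18, edgeR adjusted p = 0.00282), the procollagen protease Bmp1 (0.79 ± 0.12, edgeR adjusted p = 0.00257) and its enhancer Pcolce2, whose call with all libraries (0.29 ± 0.10, edgeR adjusted p = 0.0402) was lost in 7 of the 8 fits that left out 1 DBA library.

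Elastic fibre genes had the highest share of calls among the matrix lists, 15 of 20 higher and none lower. Over all genes these shares were 11.1% and 13.8%. The list's median was 0.82, and 0.56 without controls 3 and 4. With each library's GC trend removed as well it was 0.44, and 2 were called higher. The fibulin genes Fbln1, Fbln2 and Fbln5 and the TGF-beta binding protein gene Ltbp3 were retained. Fbln1 was even among controls, at 134, 149, 138 and 144 CPM, and was at 178, 196, 209 and 198 after ligation (0.47 ± 0.09, edgeR adjusted p = 0.00426), the same difference as without controls 3 and 4 (0.47, edgeR adjusted p = 0.0282). Adamtsl2, a microfibril partner, differed more and was not retained, at 15.2, 17.9, 8.28 and 7.37 CPM and 38.1, 40.1, 35.2 and 46 (1.63 ± 0.28, edgeR adjusted p = 0.00282; without controls 3 and 4, 1.27, edgeR adjusted p = 0.0558). Of 31 matrix proteases and inhibitors 11 were called higher and none lower. Mmp2, a gelatinase, was at 155, 160, 134 and 134 CPM and 244, 269, 326 and 303 after ligation, and Mmp14, the membrane protease that activates it, at 39.3, 43.4, 31.1 and 26 and 68.3, 77.8, 91.9 and 73. Their log2 fold changes of 0.96 ± 0.13 and 1.13 ± 0.16 (edgeR adjusted p = 0.00183 and 0.00226) stayed at 0.85 and 0.91 without controls 3 and 4 (edgeR adjusted p = 0.0136 and 0.0182).

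Matricellular proteins, which signal to cells rather than build the matrix, were called higher in 10 of 23 and lower in none, and the list's median was larger without controls 3 and 4 (0.84) than with all libraries (0.66). Ctgf, a target of TGF-beta and of stretch, was at 74.8, 82.6, 94 and 141 CPM in controls and 169, 217, 168 and 202 after ligation. Control 4 was the highest control, so the log2 fold change grew from 0.96 ± 0.18 (edgeR adjusted p = 0.00406) to 1.26 without controls 3 and 4 (edgeR adjusted p = 0.00404). Sparc, a collagen-binding glycoprotein, was at 813, 764, 697 and 785 CPM and 1385, 1280, 1536 and 1615 after ligation (0.93 ± 0.15, edgeR adjusted p = 0.0027), nearly the same as without the shallow controls (0.88 ± 0.20, edgeR adjusted p = 0.03). Postn, periostin of activated fibroblasts, was at 154, 146, 170 and 290 CPM and 404, 317, 533 and 414. It was called with all libraries (1.14 ± 0.33, edgeR adjusted p = 0.0193) but not without controls 3 and 4, where the difference was larger and less certain (1.48 ± 0.48, edgeR adjusted p = 0.0984). Of 24 integrins 5 were called higher and none lower, beside 11.1% and 13.8% of all genes. The fibronectin receptor chain Itga5, the laminin receptor chain Itga6 and Itgb5 were retained, at 0.63 ± 0.12, 0.43 ± 0.09 and 0.57 ± 0.11 (edgeR adjusted p = 0.00451, 0.00674 and 0.00482). Without controls 3 and 4 they were at 0.42, 0.39 and 0.36. Small leucine-rich proteoglycans stood apart from the other matrix lists in counts, with 1 of 12 called lower and none higher, and their median was -0.04 with all libraries, -0.43 without controls 1 and 2 and 0.21 without controls 3 and 4. Their median GC content was 40.5%, against 49.7% over all genes, and 54.5% for the collagen maturation enzymes. The part of GC content in the differences between these lists was not tested.

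**Figure D4:**
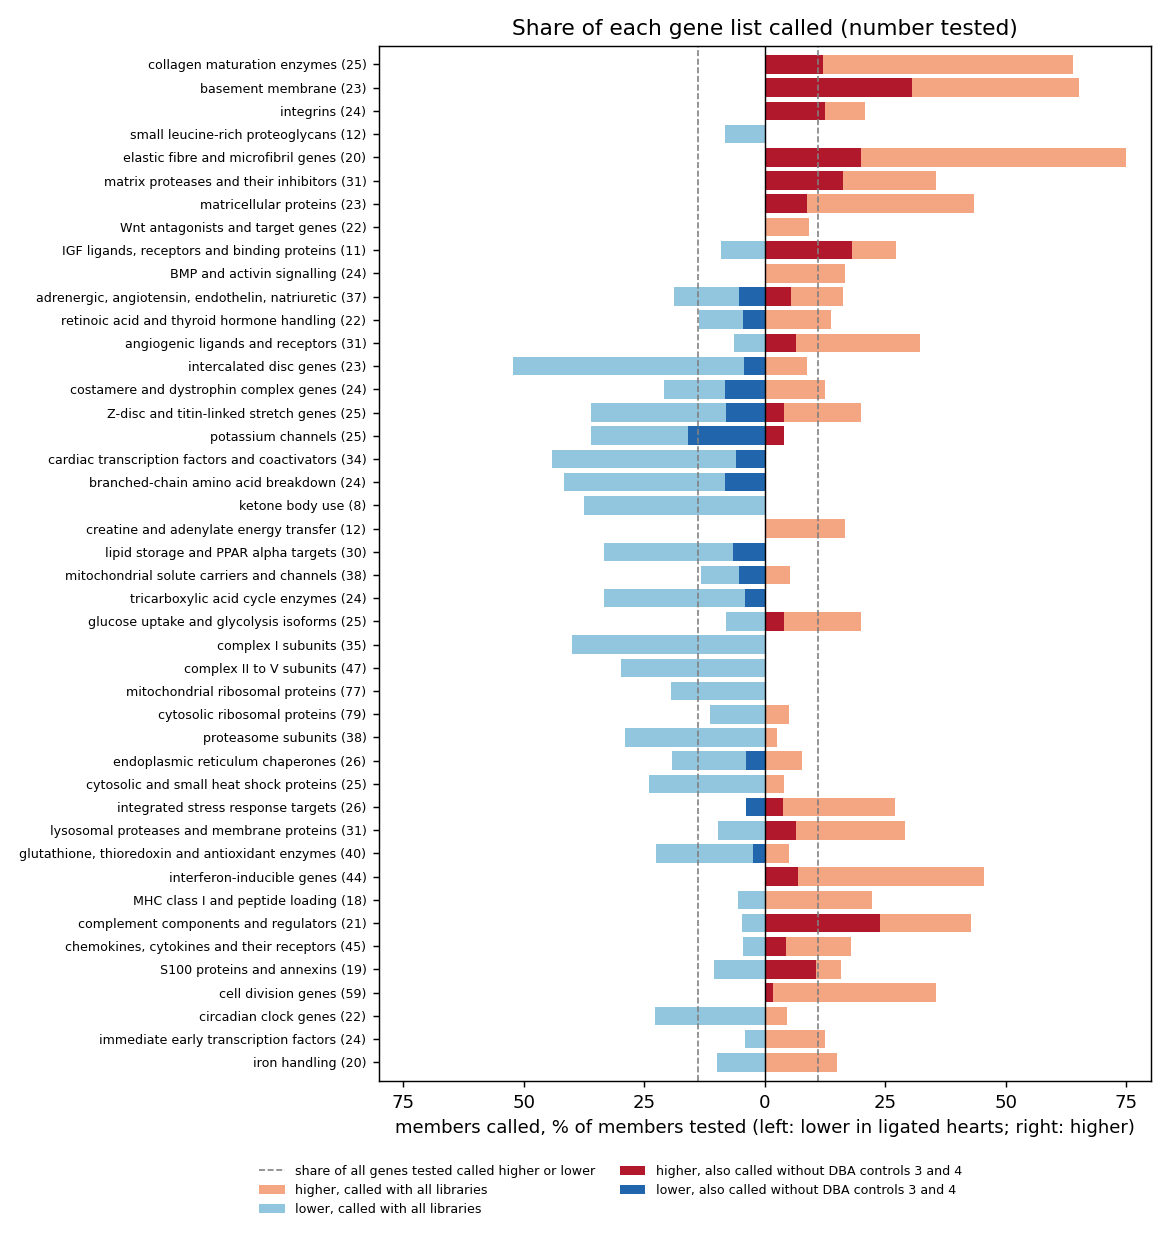
Share of the tested members of each of 44 gene lists called higher (right) or lower (left) in ligated DBA hearts with all libraries, with the retained share in dark colour and the number tested in brackets. Dashed lines mark the shares over all genes tested, 11.1% higher and 13.8% lower. Bars of the elastic fibre, basement membrane and collagen maturation lists reach furthest to the right, with 15 of 20 elastic fibre genes, and bars of complex I, the proteasome and both sets of ribosomal proteins have no dark part.

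Immune genes rose in several lists. Of 21 complement genes 9 were called higher and 1 lower, with a median of 0.36, and 5 were retained. Over all genes tested 11.1% were called higher and 13.8% lower, and 3.34% were retained. C4b, a component of the classical pathway with a near-identical copy in the mouse, was at 47, 79.2, 46.1 and 34.9 CPM in controls and 117, 153, 121 and 98.8 after ligation. Its log2 fold change was 1.22 ± 0.20 (edgeR adjusted p = 0.0027), and 0.95 without controls 3 and 4 (edgeR adjusted p = 0.0384). Cfb, factor B of the alternative pathway, rose from 5.1, 5.86, 6.87 and 2.17 CPM to 13.2, 10.6, 14.1 and 10.1 (2.3-fold, edgeR adjusted p = 0.00532). C6 and C7, parts of the membrane attack complex, differed by 1.65 ± 0.32 and 1.11 ± 0.23 (edgeR adjusted p = 0.00448 and 0.00522), with C6 at 0.359 to 1.08 CPM in controls and 1.78 to 2.15 after ligation. C1qc, made by macrophages, was the fifth, at 36.7, 41.9, 22 and 14.5 CPM and 60, 49.6, 52.7 and 53.7. Its log2 fold change of 0.86 ± 0.21 (edgeR adjusted p = 0.01) was 0.46 without controls 3 and 4 (edgeR adjusted p = 0.0395). Of the 16 macrophage markers 9 were called higher and none lower, and the retained one was C1qc.

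Interferon-inducible genes were called higher in 20 of 44 and lower in none, beside 11.1% and 13.8% of all genes. Their median of 0.47 was 0.57 without controls 3 and 4. Although only 3 were retained, 18 of the 20 calls were repeated in the 6 DBA libraries. Rsad2, the antiviral enzyme viperin, was at 9.13, 15, 18.2 and 10.6 CPM in controls and 21.2, 22.6, 22 and 28.8 after ligation. Stat2, a transcription factor of the interferon response, was at 17.8, 19.6, 20.6 and 20.4 CPM and 27.1, 27.7, 25.5 and 29.4. The groups did not overlap in either gene, and the log2 fold changes of 0.84 ± 0.20 and 0.49 ± 0.11 (edgeR adjusted p = 0.00977 and 0.00637) were 0.95 and 0.55 without controls 3 and 4 (edgeR adjusted p = 0.0384 and 0.0253). Trim25, a ubiquitin ligase of RNA sensing, was the third (0.48 ± 0.09, edgeR adjusted p = 0.00396). The factor complex that holds Stat2 binds the interferon-stimulated response element, so the promoter windows of the 2 retained genes that contain it are shown, from RefSeq on GRCm38.p6 (Rsad2, chr12:26456403-26456702, minus strand; Stat2, chr10:128270248-128270547, plus strand). Capitals mark the element, searched on both strands as GAAA, any 2 bases and GAAA.
Rsad2: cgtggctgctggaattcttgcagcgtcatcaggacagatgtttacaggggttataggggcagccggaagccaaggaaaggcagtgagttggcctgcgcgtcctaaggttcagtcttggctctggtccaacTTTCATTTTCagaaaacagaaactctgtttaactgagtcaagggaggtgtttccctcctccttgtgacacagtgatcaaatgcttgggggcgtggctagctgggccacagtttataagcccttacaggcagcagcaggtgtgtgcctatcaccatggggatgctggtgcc
Stat2: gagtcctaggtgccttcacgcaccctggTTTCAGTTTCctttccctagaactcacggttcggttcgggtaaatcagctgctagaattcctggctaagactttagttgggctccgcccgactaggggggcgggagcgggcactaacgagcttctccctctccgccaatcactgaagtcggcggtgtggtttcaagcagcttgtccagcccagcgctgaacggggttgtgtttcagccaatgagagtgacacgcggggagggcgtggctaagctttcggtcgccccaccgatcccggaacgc
The element was in 3.44% of the 32851 windows and in 14 of the 32 tested interferon-inducible genes that have a window (43.8%). It was in 7 of the 15 called genes with a window and in 7 of the 17 that were not called (46.7% and 41.2%). The Trim25 window did not hold it.

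Chemokine, cytokine and receptor genes were called higher in 8 of 45 and lower in 2, beside 11.1% and 13.8% of all genes. Besides Ccl8 the retained one was Tgfb3, at 38.1, 41.3, 35.2 and 42.3 CPM in controls and 56.4, 60.2, 65.6 and 54.5 after ligation (0.59 ± 0.10, edgeR adjusted p = 0.00278). The calcium-dependent membrane-binding proteins Anxa2 and Anxa3 were retained at 0.71 ± 0.12 and 0.69 ± 0.11 (edgeR adjusted p = 0.0027 for both), and at 0.52 and 0.65 without controls 3 and 4. S100a11, of the calcium-binding S100 family, gave opposite signs with and without the shallow controls. It was at 52.6, 33.8, 126 and 263 CPM in controls and 51.3, 48.2, 45.6 and 44.6 after ligation, so the ligated hearts lay between controls 1 and 2. It was called lower with all libraries (-1.29 ± 0.45, edgeR adjusted p = 0.0459), and without controls 3 and 4 the difference was 0.14 (edgeR adjusted p = 0.847).

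Vessel genes were called higher more often than lower. Over all genes tested these shares were 11.1% and 13.8%, and 3.34% were retained. Of 16 endothelial markers 7 were called higher and none lower, and Tie1, an endothelial receptor kinase, the secreted Egfl7 and the guidance receptor gene Robo4 were retained. Tie1 was at 67.1, 84, 47.4 and 37.7 CPM in controls and 99.8, 110, 106 and 126 after ligation (0.88 ± 0.18, edgeR adjusted p = 0.00554; without controls 3 and 4, 0.55, edgeR adjusted p = 0.0449). Pecam1 and Cdh5, which define endothelium, were called with smaller differences, 0.23 ± 0.07 and 0.32 ± 0.09 (edgeR adjusted p = 0.0305 and 0.0227), and were not retained (0.24 and 0.28 without controls 3 and 4). Of 31 angiogenic ligands and receptors 10 were called higher and 2 lower, with Tie1 and the coreceptor gene Nrp2 retained, the latter at 0.35 ± 0.09 (edgeR adjusted p = 0.0129) and not called without control 3. Of the 13 tested fibroblast markers 7 were called higher and none lower, and besides Col3a1 the retained one was Pi16, a marker of adventitial fibroblasts, from 57.5 to 99.2 CPM in controls to 139 to 177 after ligation (1.00 ± 0.17, edgeR adjusted p = 0.00292; 0.73 without controls 3 and 4). Pdgfra, which defines fibroblasts, differed by 0.17 ± 0.09 and was not called (edgeR adjusted p = 0.164).

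Cell division genes differed among the ligated mice. Of 59 tested, 21 were called higher and none lower, beside 11.1% and 13.8% of all genes, with a median of 0.82. Retained was 1, the mitotic kinase Cdk1, beside 3.34% of all genes. In the 6 DBA libraries 5 of the 21 calls were repeated. Top2a, a DNA topoisomerase of dividing cells, was at 11.3, 4.64, 4.63 and 4.99 CPM in controls and 22.8, 6.53, 18.9 and 22.6 after ligation. Ligated heart S40 lay below control 1, while the other 3 lay well above it. The gene was called with all libraries (1.42 ± 0.365, edgeR adjusted p = 0.0126) and not without controls 3 and 4 (1.18, edgeR adjusted p = 0.184). Mki67, a proliferation marker, was at 21.1, 12.6, 11.9 and 27.8 CPM and 34.9, 13.5, 31.7 and 35.2, again with S40 within the controls, and missed the threshold (0.70 ± 0.32, edgeR adjusted p = 0.114). The median level of the list, as log2(CPM + 0.5) relative to the control mean, was 0.06 in S40 and 0.81 to 0.98 in the other ligated hearts, against -0.28 to 0.33 in controls. In S40 the collagen maturation, basement membrane, elastic fibre, protease and matricellular lists stood at 0.35 to 0.61 on the same scale, above all 4 controls. Cdk1 itself was at 2.16, 1.51, 1.4 and 1.3 CPM in controls and 4.14, 2.75, 4.35 and 4.27 after ligation (1.23 ± 0.26, edgeR adjusted p = 0.00571; without controls 3 and 4, 1.10, edgeR adjusted p = 0.0479).

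**Figure D5:**
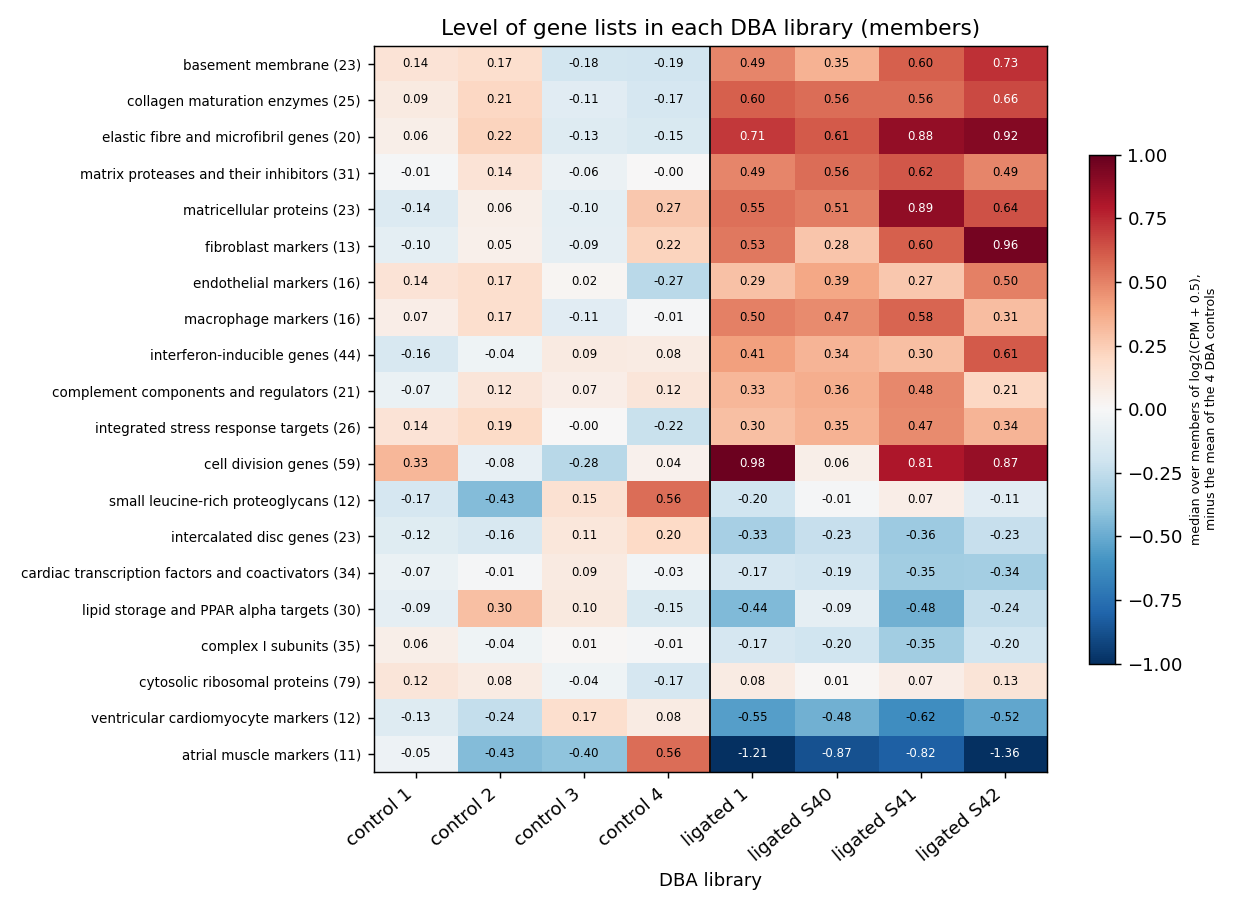
Median over the members of 20 gene lists of log2(CPM + 0.5) minus the mean of the 4 DBA controls, in each DBA library, printed in each cell and coloured from blue (lower) to red (higher), with controls left and ligated hearts right of the black line. Cell division genes are at 0.06 in ligated heart S40 and at 0.81 to 0.98 in the other 3, whereas elastic fibre genes are at 0.61 to 0.92 in all 4.

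Lists of stress responses, the clock and early response genes held at most 2 retained calls each. Over all genes tested 11.1% were called higher, 13.8% were called lower and 3.34% were retained. Of 26 targets of the integrated stress response 7 were called higher and 1 lower, and 2 of the 26, Nupr1 and Vldlr, were retained. Gdf15, a secreted stress hormone, was at 0.935, 1.8, 0.561 and 0.434 CPM in controls and 3.48, 3.17, 2.9 and 3.95 after ligation, and was called with all libraries (1.62 ± 0.36, edgeR adjusted p = 0.00701) and not without controls 3 and 4 (1.27, edgeR adjusted p = 0.0568). Sod1, the cytosolic superoxide dismutase, was retained at -0.60 ± 0.12 (edgeR adjusted p = 0.00424; -0.41 without controls 3 and 4), among 9 antioxidant genes called lower and 2 higher of 40. Of 22 circadian clock genes 5 were called lower and 1 higher and none was retained, although all 6 calls were repeated in the 6 DBA libraries. Of 24 immediate early genes, which respond to stimuli within minutes, 3 were called higher and 1 lower. Egr1, the 1 that was called lower, was at 20.8, 72, 87.7 and 170 CPM in controls and 25.8 to 43.5 after ligation, so its groups overlapped. The difference was -1.33 ± 0.44 (log2; edgeR adjusted p = 0.0371) with all libraries and -0.45 without controls 3 and 4 (edgeR adjusted p = 0.628), and the call was lost in 6 of the 8 fits that left out 1 DBA library.

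Genes with large differences that were not retained were led by atrial muscle genes. Myl7, the atrial regulatory light chain, was at 31.5, 12.1, 16 and 33.2 CPM in controls and 2.86, 5.68, 4.3 and 3.35 after ligation. Its difference was as large without controls 3 and 4, -2.43 ± 1.04 against -2.50 ± 0.76, but was then no longer called (edgeR adjusted p = 0.188 against 0.0257). Sln, sarcolipin of atrial myocytes, Mybphl and Clec3a behaved alike, with log2 fold changes of -2.61, -2.24 and -2.57. The calls for Sln, Myl7 and Mybphl were each lost in 6 of the 8 fits that left out 1 DBA library. Of the 11 tested atrial markers, which include Kcnj3 and Tbx5, 6 were called lower and 1, Nppa, higher. Over all genes 13.8% were called lower and 11.1% higher. The median over the list was -0.94 without controls 3 and 4, against -1.30 with all libraries, with levels from -0.43 to 0.56 in controls and from -1.36 to -0.82 in ligated hearts on the log2 scale relative to the control mean. The part of atrial tissue in these differences was not tested. The rises not retained were led by Col9a2, a chain of type IX collagen (2.25 ± 0.50, edgeR adjusted p = 0.00756), and by Spag5, Fam46b and Iqgap3, with 1.97, 1.62, 1.27 and 1.24 without controls 3 and 4 (edgeR adjusted p = 0.0698, 0.053, 0.0947 and 0.0741).

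No gene was called when the DBA response was tested against that of the C57 hearts (0 of 13504 genes with edgeR, 0%; 782 had an unadjusted p under 0.05), and DESeq2 called 16. Nothing in the DBA response is therefore shown to be particular to the strain. For the genes that lead the DBA response the 2 responses were, side by side, 1.44 ± 0.25 and 2.30 ± 0.26 for Nppa, -0.69 ± 0.12 and -0.40 ± 0.12 for Myh6, 1.25 ± 0.21 and 1.09 ± 0.21 for Col4a1, and -1.30 ± 0.17 and -0.76 ± 0.17 for Kcnj3, in DBA and C57 hearts. In the authors' deposited table, genes numbering 4008 have a false discovery rate under 0.05 for the DBA comparison, 1930 higher and 2078 lower. All 451 retained genes are among them with the same direction. Both results come from the same counts, and retained genes had to be called with all libraries, so this overlap is no independent support.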

How the data were processed

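PolyA RNA of 16 mouse hearts was sequenced from KAPA mRNA Hyperprep libraries, per the labels' protocols. The authors deposited raw read counts per gene for 13842 genes, none with a total under 45 over all libraries. Reads were handled with STAR 2.5.2b, featureCounts of Subread 1.5.1 and edgeR on mm10, per the submitters' processing notes. No strand setting or annotation is stated there or in the labels, so overlapping and antisense genes cannot be told apart. DBA reads were counted on a reference derived from C57BL/6. The authors' deposited table also holds log2 fold changes and p-values of their own comparisons, which were used only where named, and 16 columns of normalized values per library that were not used.

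Tests on these counts used edgeR 4.0.16 (R 4.3.3). Genes were filtered by filterByExpr, scaled by TMM and fitted by the robust quasi-likelihood method with 1 mean per group over all 16 libraries (residual degrees of freedom 12, prior 5.45), with Benjamini-Hochberg adjustment over all genes tested at a threshold of 0.05. CPM values use TMM-scaled library sizes. Nothing in the labels says that libraries of a group share a source, and p-values measure the spread between these hearts. In 3 ligated DBA columns the mouse number is not the one in the labels, so they are named by library index (S40, S41 and S42). GC content came from the longest transcript per gene in GENCODE M21 (13764 genes, 99.4%), and the GC offset is a lowess trend with span 0.3 per library. The script was tested on simulated data. Alternatives were single libraries and pairs of controls left out, RLE size factors, library totals, no filter, the 8 DBA libraries alone, a GC offset and DESeq2 1.42.0.

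The genes named are the 12 largest retained rises and falls and the 6 largest by CPM difference per direction, given no overlap and a mean of 2 CPM or more in the higher group, the 4 largest per direction that were not retained, and members of 44 gene lists and 18 marker lists by p-value, direction or role. Members and lists were chosen with earlier results of these data known, and list medians and counts are descriptions with no test. Promoter windows of 300 bases came from RefSeq.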

Additional observations from a re-analysis of the deposited data

Results flagged for a closer look

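In 84 groups of 4 DBA libraries (42 genes named by fold change, CPM difference or role), 5 held a library that stood apart from the other 3 by Dixon's test, and chance gives about 1 in 20 groups. Atp2a2 was lowest in control 4, at 15729 CPM, against 18167 to 18649 in the other controls. Camk1g was highest in control 3, at 1.12 CPM, against 0.431 to 0.522. Lrrc10b was highest in control 2, at 4.35 CPM, against 2.37 to 2.6. In ligated heart S40 both Sln and Mybphl were highest, at 1.04 CPM each, against 0.433 to 0.497 and 0.387 to 0.433 in the other ligated hearts. In all 5 genes the ligated and control groups did not overlap, which was a condition for naming them.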

How the results depend on the processing

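The 3360 calls became 505 without controls 3 and 4, 6377 without controls 1 and 2, 1648 with the 8 DBA libraries alone, 647 with a GC offset and without controls 3 and 4, and 2093 in the 6 DBA libraries left without controls 3 and 4, the alternative added after the data had been seen. Leaving out 1 DBA library at a time gave 1318 (without control 3) to 5091 calls (without control 2), and 2325 without control 4, 1811 without ligated heart S41 and 1793 without S42. RLE size factors, no filter, the GC offset alone and DESeq2 gave 2975 to 3989. Library totals gave 3926 calls, 79.1% of them higher against 44.7% with TMM. The difference between strains gave 0 calls in the other fits, 2324 without controls 1 and 2, 2 with a GC offset and without controls 3 and 4, and 16 with DESeq2. Of 266 called genes among the 327 named, 101 were retained and 184 kept their call with any single library left out. The sign turned in a result called before or after the change for Ckm (0.03, then -0.26 in the 6 DBA libraries), Jund (0.32, then -0.28 with a GC offset) and S100a11 (-1.29, then 0.14 without controls 3 and 4, 0.13 with a GC offset as well and 0.14 in the 6 DBA libraries); the cause was not tested. Differences called in neither fit also changed sign, as for Ecm2 (-0.61, then 0.09 without controls 3 and 4) and Tnnt3 (-0.18, then 0.64). No paired analysis was possible by replicate number because 3 of the 4 ligated DBA columns carry no replicate number that the labels share. Each library is 1 heart, and nothing in the labels pairs a ligated heart with a control heart. A shared replicate number would therefore not by itself make a pair. Depth limits low genes most in control 4, where 301 genes were at 0 against 102 in control 3 and 13 to 36 in the other DBA libraries.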

Other observations

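Without controls 3 and 4, 54 genes were called that had no call with all libraries, 16 higher and 38 lower, and 53 of them had been tested there. A gene can enter this list because its level in controls 3 and 4 lies toward the ligated hearts, so the order of the controls follows from the choice. They were listed after their values had been seen, and examples follow. Slc38a3, a glutamine transporter, was at 37.9 and 44.4 CPM in controls 1 and 2, 30.6 and 18 in controls 3 and 4, and 22.3 to 25.9 after ligation. Its log2 fold change was -0.80 ± 0.13 without controls 3 and 4 (edgeR adjusted p = 0.0115) and -0.50 with all libraries (edgeR adjusted p = 0.057). Jph2, junctophilin of the calcium release unit, was at 680, 703, 585 and 413 CPM in controls and 501 to 534 after ligation, so control 4 lay under every ligated heart. Without controls 3 and 4 its log2 fold change was -0.41 ± 0.09 (edgeR adjusted p = 0.0292). Slc6a8, the creatine transporter, was at 286, 283, 233 and 193 CPM and 195 to 224 after ligation, with a log2 fold change of -0.41 ± 0.09 (edgeR adjusted p = 0.0216) in the same fit. Akt2, a kinase of insulin signalling, was at 238, 237, 200 and 144 CPM and 163 to 177 (-0.49 ± 0.10, edgeR adjusted p = 0.0197). In these 4 genes control 4 was the lowest control.

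Among the higher genes, Sfrp1, a secreted Wnt antagonist, was at 50.5, 62.3, 78.3 and 130 CPM in controls and 83.7 to 106 after ligation. It was not called with all libraries (0.28, edgeR adjusted p = 0.363) and was called without controls 3 and 4 (0.76 ± 0.18, edgeR adjusted p = 0.0366). Tnn, the matrix glycoprotein tenascin N, was at 2.16, 3.77, 5.19 and 9.54 CPM in controls and 5.68 to 8.85 after ligation (1.29 ± 0.32 without controls 3 and 4, edgeR adjusted p = 0.0372). In both genes control 4 exceeded every ligated heart.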
